A study of Mus musculus with 4 samples.

Results

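The 9 genes described here, Ifit1, Ifit2, Ifit3, Isg15, Irf7, Stat2, Rsad2, Zbp1 and Oasl2, are interferon-stimulated genes, taken by symbol from the 32285 genes counted in single-nucleus RNA-Seq of mouse lung. Lungs of 2 WT and 2 VEcad-TRF2DN-Tg mice were used, all C57/BL6J and 8 to 9 weeks old, and the study's methods describe male mice and chronic hypoxia. In the VEcad-TRF2DN-Tg mice, the VE-cadherin promoter drives a dominant-negative TRF2, a protein that protects telomeres, in endothelial cells (ECs), as a model of EC senescence. The comparison of genotypes asks whether the genes of the interferon response differ between them in the lungs, and above all in the ECs.

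Type I interferons bind a receptor on the cell surface and, through the kinases JAK1 and TYK2, activate a complex with STAT2 and IRF9 that enters the nucleus and binds a short DNA element in front of its target genes. The targets include sensors and transcription factors that reinforce the response and effectors that act on viral RNA and protein. Damaged or misplaced DNA in senescent cells is one known trigger of this pathway.

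The DNA element is shown first, since the members were grouped by the response that acts through it. The letters searched were GAAANNGAAA, and TTTCNNTTTC for the other strand, in RefSeq promoters of 300 bases (250 before the start of the gene and 50 after it, build GRCm38.p6). Of 32851 promoters, 3.44% held it. Among the members, 8 had a promoter entry and 5 of these held the element, all of them before the start. The stretches of 70 bases that hold it are given 5′ to 3′ on the strand of the gene, with the element in capitals (matches that overlap run together).
Ifit1, chr19:34640775-34640844, plus strand: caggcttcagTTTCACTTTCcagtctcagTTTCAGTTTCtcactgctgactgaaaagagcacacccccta
Ifit3, chr19:34583363-34583432, plus strand: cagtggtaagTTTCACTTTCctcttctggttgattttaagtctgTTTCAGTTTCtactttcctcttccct
Isg15, chr4:156200837-156200906, minus strand: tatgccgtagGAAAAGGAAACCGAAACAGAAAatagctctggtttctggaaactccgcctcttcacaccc
Stat2, chr10:128270266-128270335, plus strand: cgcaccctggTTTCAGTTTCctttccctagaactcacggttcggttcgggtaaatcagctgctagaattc
Rsad2, chr12:26456513-26456582, minus strand: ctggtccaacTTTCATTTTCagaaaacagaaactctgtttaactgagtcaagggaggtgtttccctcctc
The element nearest to the start began 66 bases before it in Isg15, 85 in Ifit1, 120 in Rsad2, 122 in Ifit3 and 222 in Stat2. These letters were not in the windows of Ifit2, Irf7 and Oasl2. In the GENCODE annotation (release vM21, GRCm38), Ifit1, Ifit2 and Ifit3 lie side by side on chromosome 19, from 34550694 (the start of Ifit2) to 34650009 (the end of Ifit1), together with the closely related genes Ifit3b and Ifit1bl1, so that reads may have been shared between copies. Zbp1 lies at chr2:173206612-173218923 on the minus strand, Irf7 at chr7:141262706-141266481 on the minus strand and Oasl2 at chr5:114896936-114912234 on the plus strand.

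The deposited matrices hold counts of unique molecular identifiers (UMIs, each standing for 1 captured transcript) in all barcodes, 125261739 to 182014706 UMIs per mouse. Barcodes with at least 1500 UMIs were sorted into classes by marker genes. Those that resembled free RNA, had too few markers of their class or carried markers of a class from another compartment were left out. The compartments were endothelial, mesenchymal, mesothelial, epithelial, myeloid and lymphoid. The classes are called by the cell type whose markers they carry (EC-like and so on), and 14 classes had at least 20 nuclei in every mouse, 4861 and 6603 nuclei of WT mice and 12761 and 14639 of VEcad-TRF2DN-Tg mice. Blood ECs, led by Cyyr1, Adgrl4, Tek and Shank3, numbered 826 and 740 (WT) and 1759 and 2059 (VEcad-TRF2DN-Tg). The class with club cell markers was led by Lgr6, Tacr1 and Gabrp, and the mesothelial class by genes outside its marker list. Ddx3y was counted in all 4 mice with 2332 to 6604 UMIs against 17 to 81 of Xist, and at most 48 barcodes were shared by a pair of libraries. The transgene itself has no row of its own, and mouse Terf2 in ECs was at 51.4 and 52.4 CPM (UMIs scaled to 1000000 in a sum) in WT against 47.3 and 52.9 CPM in VEcad-TRF2DN-Tg mice.

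Free RNA was part of every sum. Barcodes with 300 to 800 UMIs were taken as droplets without a nucleus, and from secretoglobin and surfactant genes their RNA was estimated to make up 44.7% and 45.9% of EC UMIs in WT against 34.3% and 35.5% in VEcad-TRF2DN-Tg mice. Estimated from hemoglobin genes, the share was 46.2% and 34.7% (WT) and 40.1% and 37.7% (VEcad-TRF2DN-Tg), and the genotypes overlapped. The libraries also differed by genotype in kind: genes of ribosomal proteins took 0.995% and 2.13% of these droplets' UMIs in WT against 7.80% and 6.75% in VEcad-TRF2DN-Tg mice, and 0.492% and 0.972% against 3.17% and 2.77% in ECs. Genotype and library cannot be told apart here, and in such sums a smaller share of responding cells cannot be told apart from less RNA per cell.

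In the ECs, none of the 9 members passed the test in either direction, whereas 7.20% of the 14272 genes tested did. The test was edgeR's quasi-likelihood test on UMIs summed per mouse, with an adjusted p under 0.05 as the threshold, and all 9 members passed its filter on low counts. Leaving out 1 mouse at a time, 1763 (without WT replicate 1), 2729 (without WT replicate 2), 2 (without VEcad-TRF2DN-Tg replicate 1) and 626 genes (without VEcad-TRF2DN-Tg replicate 2) were called in place of 1028. Of the members, 4 had a log2 fold change above 0 and 5 below it, with a median of -0.15 beside 0.02 over all genes tested. At an unadjusted p under 0.05 there was 1 member, Stat2, beside 28.4% of all genes tested, and DESeq2 called no member. The smallest two-sided p that an exact permutation test allows with 2 mice per genotype is 0.333.

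Zbp1, a sensor of left-handed nucleic acids that can start inflammatory cell death, gave 20 and 20 UMIs in WT ECs and 17 and 51 in VEcad-TRF2DN-Tg ECs. Its levels of 7.46 and 6.67 CPM (WT) and 3.51 and 7.16 CPM (VEcad-TRF2DN-Tg) overlapped between genotypes. The log2 fold change was -0.40 (95% interval -1.44 to 0.64, edgeR adjusted p = 0.574). In every mouse, Zbp1 was lower in ECs than in the free RNA, at 34.8% to 53.7% of its level there.

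Irf7, the transcription factor that amplifies the production of type I interferons, was counted 5 and 13 times in WT ECs and 28 and 15 times in VEcad-TRF2DN-Tg ECs. The 4 levels, 1.86 and 4.34 CPM against 5.78 and 2.11 CPM, overlapped between genotypes, and the interval of the log2 fold change ran from -1.34 to 1.90.

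Stat2, which encodes a subunit of the complex that interferons activate, was the member nearest to a difference. WT ECs held 316 and 311 UMIs and VEcad-TRF2DN-Tg ECs 326 and 523, which gave 117.8 and 103.7 CPM against 67.3 and 73.4 CPM. The VEcad-TRF2DN-Tg levels were thus below those of WT, without overlap. The fitted difference on the log2 scale was -0.67 (standard error 0.18, 95% interval -1.10 to -0.25), with an edgeR adjusted p of 0.0684 and a DESeq2 adjusted p of 0.0844. Over the alternatives run, the adjusted p ranged from 0.0241 (without WT replicate 2, where Stat2 was called) to 0.384 (without VEcad-TRF2DN-Tg replicate 1). It was also called without a filter on low counts (adjusted p = 0.0377) and with the replicate number as a block (adjusted p = 0.0305). In free RNA, Stat2 stood at 65.1 and 65.5 CPM (WT) and 32.0 and 45.7 CPM (VEcad-TRF2DN-Tg), again with no overlap, and its part in the difference in ECs was not tested.

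The IFIT proteins bind viral RNA and block its translation. Ifit1 had 5.96 and 9.67 CPM in WT ECs and 9.09 and 8.00 CPM in VEcad-TRF2DN-Tg ECs, with a log2 fold change of 0.10 (95% interval -0.75 to 0.96). For Ifit2 the values were 11.9 and 12.7 CPM (WT) and 11.4 and 11.1 CPM (VEcad-TRF2DN-Tg), which left no overlap but a log2 fold change of only -0.15 (95% interval -0.81 to 0.50). Ifit3 overlapped, at 3.36 and 6.67 CPM (WT) and 6.40 and 4.91 CPM (VEcad-TRF2DN-Tg). Of these genes, Ifit2 alone was above the free RNA in the ECs of every mouse.

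Isg15, a ubiquitin-like protein that is attached to other proteins, was counted 12 and 19 times in WT ECs and 37 and 35 times in VEcad-TRF2DN-Tg ECs, and its levels of 4.47 and 6.34 CPM against 7.64 and 4.91 CPM overlapped. Rsad2, which encodes viperin and makes a chain terminator of viral RNA, had 5.96 and 5.00 CPM (WT) and 5.58 and 4.35 CPM (VEcad-TRF2DN-Tg), in overlapping groups. Both genes were lower in ECs than in the free RNA of every mouse. Oasl2, of the family of oligoadenylate synthetases that sense double-stranded RNA, gave 142 and 161 UMIs in WT ECs and 237 and 326 in VEcad-TRF2DN-Tg ECs. Its 52.9 and 53.7 CPM stood against 48.9 and 45.8 CPM without overlap, with a log2 fold change of -0.19 (95% interval -0.61 to 0.24, edgeR adjusted p = 0.515).

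**Figure D1:**
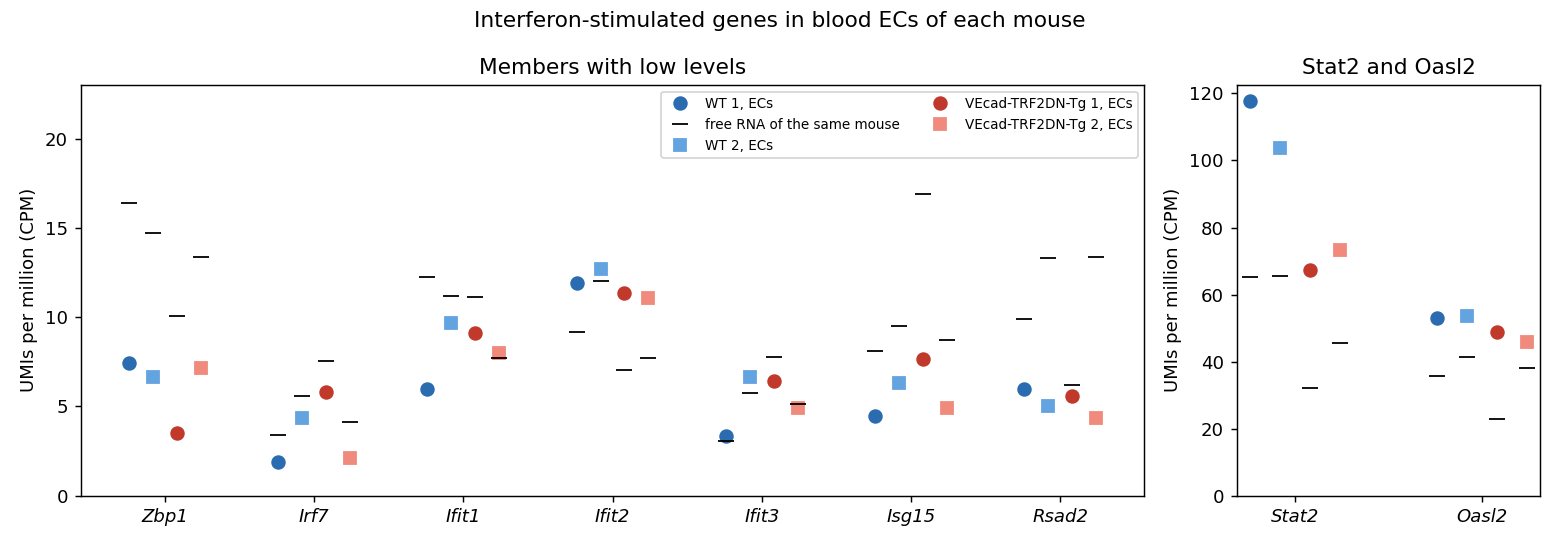
Level of each member in CPM in the blood ECs of each mouse (circles and squares) and in the droplets without a nucleus of the same mouse (black bars), with Stat2 and Oasl2 on an axis of their own. Stat2 is lower in both VEcad-TRF2DN-Tg mice than in both WT mice, in ECs and in free RNA alike, and Zbp1, Irf7, Isg15 and Rsad2 lie below the free RNA in every mouse.

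The intervals set what could have been missed in the summed UMIs, free RNA included. They do not bound a change in the RNA of the ECs themselves. Zbp1, Irf7, Isg15 and Rsad2 lay below the free RNA in every mouse. In simulated counts of ECs, edgeR recovered 81.1% of genes changed 4-fold and 6.3% of genes changed 2-fold, with 9.39% and 16% false calls. The 200 changed genes were drawn from all genes tested, at any level, whereas 1028 genes were called in the data. These rates are thus not those of the members at their counts. The upper end of the interval stayed below 1 on the log2 scale for Ifit1, Ifit2, Rsad2, Zbp1, Oasl2 and Stat2, and reached 1.20 for Isg15, 1.21 for Ifit3 and 1.90 for Irf7. The lower end passed -1 for Zbp1 (-1.44), Irf7 (-1.34), Rsad2 (-1.12) and Stat2 (-1.10), so that a 2-fold decrease of these genes lay within their intervals.

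The change in ECs was set against that in the other classes by an interaction test with a term for each mouse. For this test the other classes were summed, without lymphatic ECs and with the classes too small for a test of their own. None of the 9 members passed, and 0.0170% of 17658 genes did. The members nearest to it by p were Ifit1, with a difference of 0.68 on the log2 scale (95% interval -0.05 to 1.41, edgeR adjusted p = 0.729), and Zbp1, with 0.63. For Stat2 the difference was -0.10 (95% interval -0.37 to 0.16). In 1 simulation, 41% of genes with a 4-fold change in ECs alone were recovered. It drew ECs and the other classes independently, without deviations shared by a mouse, so this rate need not hold for these data. DESeq2 called no member either, and no member had an unadjusted p under 0.05.

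In the 13 other classes, no member passed the test either, among 67 pairs of member and class with enough UMIs, against 6.54% of all pairs of gene and class (edgeR), and DESeq2 called none. At an unadjusted p under 0.05 there were 15 of the 67 pairs (22.4%), of Stat2, Zbp1, Oasl2 and Ifit1. Of all pairs of gene and class, 24.2% were under it in either direction. All 15 member pairs were lower in VEcad-TRF2DN-Tg mice, and the share of all pairs that were lower at this p was not counted. By adjusted p, 5.76% of all pairs were called higher and 0.778% lower. Over all classed nuclei, where the mix of classes enters, 0 of 9 members passed edgeR's test and 6.53% of 19338 genes did, with 2 members, Stat2 and Zbp1, and 31.3% of all genes at an unadjusted p under 0.05. For Zbp1 the log2 fold change was -0.95 (edgeR adjusted p = 0.0910), and DESeq2 called it with an adjusted p of 0.0319. Without WT replicate 2, edgeR called 3 members, Stat2, Rsad2 and Zbp1, among 4505 genes called in place of 1263. In the droplets without a nucleus, 0 of 9 members passed edgeR's test, against 25.6% of 15180 genes, and DESeq2 called no member. At an unadjusted p under 0.05 there was 1 member (Stat2), beside 42.4% of all genes. The log2 fold changes there were 0.92 for Isg15, 0.90 for Ifit3 and -0.54 for Stat2.

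**Figure D2:**
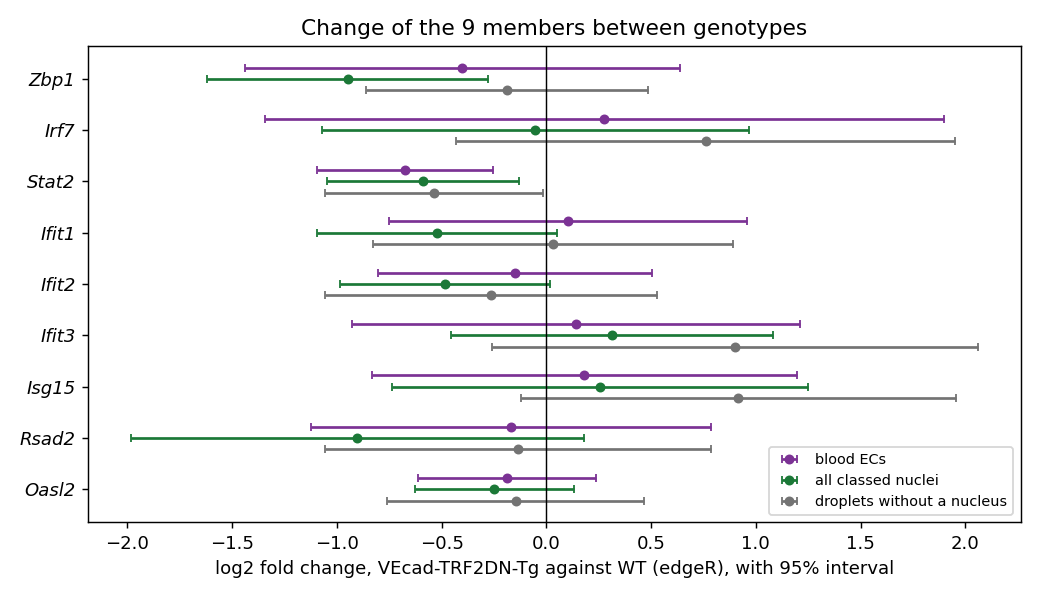
Log2 fold change of each member between genotypes (edgeR, VEcad-TRF2DN-Tg against WT; above 0 is higher in VEcad-TRF2DN-Tg mice) in blood ECs, in all classed nuclei and in droplets without a nucleus, with bars for the 95% interval. The interval of Stat2 lies below 0 in all 3, and no member had an adjusted p under 0.05.

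The direction over classes differed between members. Stat2 was lower in both VEcad-TRF2DN-Tg mice than in both WT mice in 11 of 14 classes, Ifit2 in 9, Zbp1 in 8, and Ifit1 and Oasl2 in 7 each, where 26.6% of all pairs of gene and class showed this. Isg15 and Irf7 were lower in 1 class each and Rsad2 in 2. Ifit3 was higher in both in 8 classes, where 30.8% of all pairs were. Over the 9 members and 14 classes, pairs without enough UMIs for a test included, 47 of 126 pairs were lower in this way and 13 higher, whereas the shares of all pairs were taken over those tested. The classes of a mouse share its library and its free RNA, so that these counts are not independent of each other. In alveolar macrophages, Stat2 had 136.9 and 100.3 CPM (WT) and 72.2 and 78.8 CPM (VEcad-TRF2DN-Tg) (log2 fold change -0.69, edgeR adjusted p = 0.0922). In mesothelial nuclei it had 98.0 and 100.8 CPM against 62.4 and 66.8 CPM (log2 fold change -0.62, edgeR adjusted p = 0.0781).

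The members differed in where they were found, which is given as a description, and the classes were built without the members and the genes of the other lists. Oasl2 was highest in mesothelial nuclei, at 134.8 and 151.0 CPM (WT) and 116.8 and 99.9 CPM (VEcad-TRF2DN-Tg). This was 263% to 509% of its level in free RNA, and every mouse was above every mouse of the next class, the blood ECs. At a depth of 1500 UMIs, 13.6% to 18.6% of mesothelial nuclei would hold an Oasl2 UMI in the 4 mice, against 1.41% to 2.94% of alveolar macrophages, the class with the lowest level. Without thinning, the share in mesothelial nuclei was 29.8% to 46.2%, at median depths of 3148.5 to 4508.5 UMIs. Between the genotypes, Oasl2 in mesothelial nuclei had a log2 fold change of -0.40 (95% interval -0.82 to 0.03, edgeR adjusted p = 0.223).

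Ifit2 was highest in alveolar type 1 nuclei, the thin cells of gas exchange, with 24.2 and 25.4 CPM (WT) and 23.5 and 23.2 CPM (VEcad-TRF2DN-Tg). Alveolar fibroblasts followed with a mean of 21.9 CPM, and these 2 classes did not differ by more than their spread. Ifit1 and Ifit3 were also highest in alveolar type 1 nuclei, with means of 14.2 ± 4.04 and 10.1 ± 3.28 CPM (SD, n = 4), and this was the 1 class where either was above the free RNA in every mouse. The level of Ifit3 there was above that of every mouse in the next class, blood ECs. For Ifit1, the next class, lymphatic ECs (8.88 ± 5.49 CPM, SD, n = 4), overlapped with alveolar type 1 nuclei.

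Stat2 was highest in dendritic nuclei, with 110.9 ± 34.8 CPM (SD, n = 4), and was above the free RNA of every mouse in 6 classes, namely dendritic, alveolar macrophage, blood EC, monocyte and interstitial macrophage, alveolar fibroblast and mesothelial nuclei. It was lowest in ciliated nuclei, at 42.4 ± 12.1 CPM. Of the 13 neighbouring pairs in the order of its classes, 1 was further apart than the larger SD. Isg15, Irf7, Rsad2 and Zbp1 were above the free RNA of every mouse in none of the 14 classes, and Isg15 was below it in every mouse in all 14, so that their order over classes was not resolved from background.

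**Figure D3:**
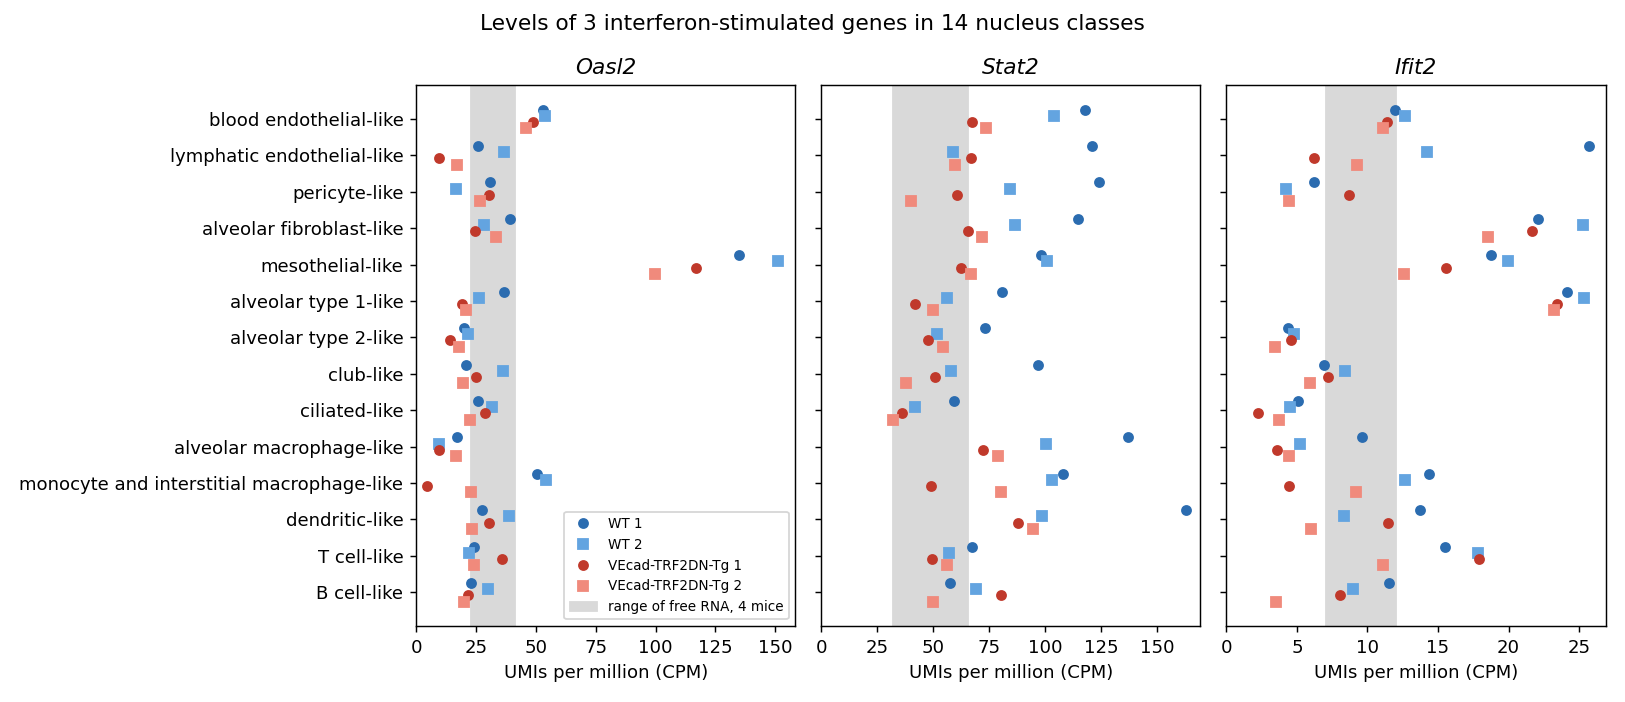
Levels (CPM) of Oasl2, Stat2 and Ifit2 in 14 classes, with 1 point per mouse and a grey band for the range of the free RNA over the 4 mice. Mesothelial nuclei stand apart for Oasl2 with 99.9 to 151.0 CPM, and alveolar type 1 nuclei hold 23.2 to 25.4 CPM of Ifit2.

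Within the blood ECs, the summed level of the 9 members in general capillary nuclei was 235 and 224 CPM (WT) and 179 and 171 CPM (VEcad-TRF2DN-Tg). In arterial nuclei it was 306 and 233 CPM (57 and 24 UMIs in 44 and 21 nuclei) against 157 and 135 CPM (120 and 114 UMIs in 212 and 204 nuclei), and in venous nuclei 161 and 197 CPM against 153 and 136. Aerocytes, the capillary cells of gas exchange, had 208 and 169 CPM against 145 and 187 CPM and were the subclass in which the genotypes overlapped. Stat2 and Oasl2 made up most of these UMIs, and no test was run on the subclasses.

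UMIs of several members in 1 nucleus were seldom counted. Leaving out Stat2 and Oasl2, 85.3% and 82.2% of WT nuclei and 89.4% and 88.0% of VEcad-TRF2DN-Tg nuclei held no UMI of the other 7 members. At least 3 of them were counted in 7 and 20 WT nuclei (0.144% and 0.303%) and in 7 and 6 VEcad-TRF2DN-Tg nuclei (0.0549% and 0.0410%), shares that did not overlap and were not tested. The shares pool 14 classes, so the mix of classes enters: of the 20 nuclei of WT replicate 2, 11 were alveolar type 1 and 6 mesothelial. These shares were not thinned to a common depth, and the median nucleus had 3371 and 4289.5 UMIs (WT) and 2718 and 3509.5 UMIs (VEcad-TRF2DN-Tg). At such depths and levels, a nucleus without a UMI may still express these genes. In the ECs, no nucleus held more than 3 of these members. Single nuclei stood out by Rsad2: 1 alveolar type 1 nucleus of WT replicate 1 held 23 UMIs of Rsad2 and 9 of Ifit2 among 5147 UMIs, 1 ciliated nucleus of VEcad-TRF2DN-Tg replicate 2 held 19 of Rsad2 among 10852, and 1 alveolar fibroblast of WT replicate 1 held 13 of the 20 Rsad2 UMIs of its class in that mouse. The level of Rsad2 in alveolar fibroblasts of that mouse, 16.4 CPM against 1.08 to 2.41 in the other mice, thus rested mostly on 1 nucleus.

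The other genes of the pathway were taken from 7 lists. No interferon gene had enough UMIs to be tested in ECs. None of 6 receptor genes and none of 14 sensing genes passed the test there. Among the kinases and transcription factors, 1 of 11 was called higher, where 6.43% of all genes were called higher and 0.778% lower. This was Irf3, the factor that switches on the first interferon genes, which had 10.4 and 14.7 CPM (WT) and 48.5 and 31.9 CPM (VEcad-TRF2DN-Tg) (log2 fold change 1.66, edgeR adjusted p = 0.0305). Among genes that restrain the response, 1 of 9 was called, Samhd1, an enzyme that degrades nucleotides, which was lower (log2 fold change -0.80).

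Of 47 other interferon-stimulated genes tested in ECs, 3 were called higher and 2 lower, with a median log2 fold change of -0.30. Of all genes tested in ECs, 6.43% were called higher and 0.778% lower, so the count called higher was near the share of all genes. The 3 genes of this list called higher were Ifitm2 and Ifitm3, which hinder the entry of viruses, and Ifi27. Ifitm2 had 11.9 and 17.0 CPM (WT) and 142.9 and 62.0 CPM (VEcad-TRF2DN-Tg) (log2 fold change 2.81, edgeR adjusted p = 0.0209), and Ifitm3 had 26.1 and 48.0 CPM against 211.9 and 100.8. Herc6, a ligase that attaches ISG15, and Ifi211 were lower, with log2 fold changes of -0.91 and -2.24. Of 20 genes of the interferon gamma response and antigen presentation, 0 were called higher and 4 lower, with a median of -0.74. These were the GTPases Iigp1, Gbp4 and Gbp5 and Nlrc5, the activator of MHC class I genes, with log2 fold changes of -1.67, -1.38, -1.31 and -1.11. In place of 12 calls over the 7 lists, edgeR made 0 without VEcad-TRF2DN-Tg replicate 1, 20 without WT replicate 1, 22 without WT replicate 2 and 1 with the free RNA subtracted.

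Most of these genes were also called elsewhere. Over the 14 classes, Ifitm2 was called higher in 13 and Ifitm3 in 12, Iigp1 lower in 11, Herc6 in 9 and Nlrc5 in 8. In the 13 classes other than blood ECs, 5.76% of all pairs of gene and class were called higher and 0.778% lower. In the droplets without a nucleus, 14.5% of genes were called higher and 11.0% lower. There, Ifitm2 (log2 fold change 3.39), Ifitm3 (2.62), Ifi27 (1.71) and Irf3 (1.57) were called higher. Iigp1 (-1.71), Herc6 (-1.59), Nlrc5 (-1.93), Ifi211 (-1.76), Gbp5 (-1.50) and Samhd1 (-1.16) were called lower. Of the genes named as called in ECs, Gbp4 alone was not called in these droplets.

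The log2 fold change went with the span of the gene in the genome. Over all genes tested in ECs, the median log2 fold change was 0.92 for 1474 genes under 5 kb, 0.35 for 4479 genes of 5 to 20 kb, -0.02 for 3973 genes of 20 to 50 kb and -0.33 for 4340 longer genes. In the droplets without a nucleus the medians were 1.18, 0.52, -0.03 and -0.71. Of the genes called in ECs, Ifitm2 and Ifitm3 (log2 fold changes 2.81 and 2.07) span 1.15 and 1.19 kb. Irf3 and Ifi27 (1.66 and 1.27) span 5.20 and 6.03 kb. Iigp1 and Ifi211, with the lowest log2 fold changes among the called genes named here (-1.67 and -2.24), span 16.6 and 16.7 kb. Gbp4, Gbp5 and Samhd1 (-1.38, -1.31 and -0.80) span 23.8, 28.4 and 37.7 kb. Herc6 and Nlrc5 (-0.91 and -1.11) span 83.6 and 92.9 kb. Each of these called genes lay further from 0 than the median of its range. The threshold picks genes far from 0, so this position follows largely from the choice of genes. The members with a log2 fold change above 0 in ECs, Isg15, Irf7, Ifit3 and Ifit1, span 1.40, 3.78, 5.20 and 9.14 kb, and the other 5 span 12.3 to 25.7 kb. Each of the former 4 changed sign under at least 1 alternative setting. Against the median of its own range of span, the log2 fold change of each of the 9 members was lower. By definition, as many genes of a range lie below its median as above it. The whole interval lay below the median only for Stat2 (upper end -0.25 against -0.02) and Oasl2 (0.24 against 0.35). For Ifit1, Ifit2, Ifit3, Isg15, Irf7, Rsad2 and Zbp1 the interval contained the median, so their lower position was not resolved. The share of all genes with an interval wholly below the median of their range was not counted. Stat2 and Oasl2 are thus not shown to differ from other genes in this. The part of span in these differences was not tested.

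**Figure D4:**
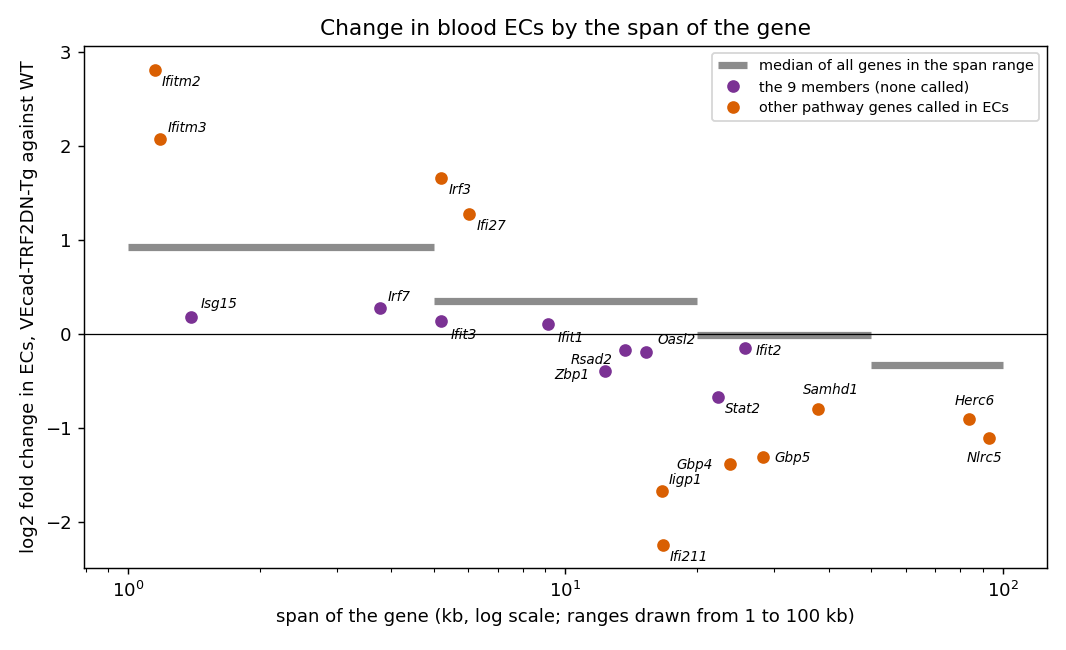
Log2 fold change in blood ECs (edgeR, VEcad-TRF2DN-Tg against WT) against the span of the gene in kb on a log scale, for the 9 members, for 11 genes of the other lists called in ECs, and as grey lines for the median of all genes tested in each range of span. The members lie below the grey lines, from Irf7 at 0.28 to Stat2 at -0.67. For every member but Stat2 and Oasl2, the interval of the log2 fold change contains the line of its range. The share of all genes for which it does was not counted.

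Over the 14 classes, the genes outside the lists whose level was most like the summed level of the members were Tmem65 (Pearson r = 0.93), Vwa5a (0.85), Tmeff2 (0.84), P3h1 (0.82), Gabra3 (0.81), Tram2 (0.81), Inpp5f (0.81), Timp2 (0.80), Tbl1x (0.80) and Vasn (0.80). These were the highest of 12613 genes compared. All 10 were highest in mesothelial nuclei, the class in which the members summed to 256.4 ± 51.9 CPM (SD, n = 4), and the points share libraries and depth. Of the 21928 UMIs of the members in the 14 classes, 10400 were of Stat2 and 5624 of Oasl2.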

How the data were processed

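Single-nucleus RNA-Seq libraries of 4 lungs, 1 per mouse, were analysed. The values are UMI counts per gene and barcode, deposited by the authors before nuclei were selected or free RNA was removed, and made with Cell Ranger 6.1.1 on mm10, per the submitters' processing notes, with intronic reads included.

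Barcodes with at least 1500 UMIs were assigned to classes by the likelihood of their marker UMIs, refined over 32117 genes without the members and the other lists, in 3 rounds. Barcodes nearer to free RNA, or with too few markers of their class (1522 to 4943 per mouse), were left out. Those with markers of a class from another compartment (157 to 995 per mouse) were left out too. Barcodes with markers of several classes of the same compartment were kept, and no doublet caller was run. Droplets without a nucleus were barcodes with 300 to 800 UMIs. For classes with 20 or more nuclei in all 4 mice, UMIs were summed by mouse. After filterByExpr (10 UMIs) and TMM scaling, the genotype effect was tested in edgeR by quasi-likelihood, p-values were adjusted over all genes by Benjamini-Hochberg, and an adjusted p under 0.05 was called. The steps were tested on simulated data, in which 200 genes were changed.

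The 9 members were named in every class tested, and of the other lists at most 5 genes past the threshold per list and class. Also named were the 10 genes whose log2(CPM + 1) over the classes correlated most with that of the members' summed CPM. They were taken among genes with a mean of at least 5 CPM. Of the genes called in these lists, 1 is not reported here. The members and lists were chosen with earlier results of these data known. The alternatives were DESeq2, low counts left unfiltered, a block for the replicate number, leaving out each mouse, at least 3000 UMIs, barcodes of mixed markers kept, classes by markers alone, the free RNA subtracted, and droplets of 100 to 300 UMIs. Droplets of 800 to 1300 UMIs were chosen after seeing the data. The numbers of replicates name separate mice, and the precision of a value is set by 2 mice per genotype and by the UMIs given beside it. Shares of nuclei cover counting error only. Tests used edgeR 4.0.16 (with limma 3.58.1) and DESeq2 1.42.0 in R 4.3.3, and all else Python 3.11.15 with NumPy 2.4.6, SciPy 1.17.1 and Matplotlib 3.10.9.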

Additional observations from a re-analysis of the deposited data

How the results depend on the processing

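In blood ECs, 1028 genes were called, against 2942 with no filter on low counts, 82 with the free RNA subtracted and 2 to 2729 with 1 mouse left out (2 without VEcad-TRF2DN-Tg replicate 1). Of the members, 0 were called, against 1 (Stat2) with no filter and 0 to 1 with 1 mouse left out. Of the 7 other lists, 12 genes were called, against 23 with no filter, 19 with barcodes of mixed markers kept, 1 with the free RNA subtracted and 0 to 22 with 1 mouse left out. Over all classed nuclei, 1263 genes were called, against 3093 by DESeq2, 3456 with no filter, 595 at 3000 UMIs or more, 459 with the free RNA subtracted and 0 to 4505 with 1 mouse left out (0 without either VEcad-TRF2DN-Tg mouse), and members went from 0 to 1 by DESeq2 (Zbp1) and 0 to 3 with 1 mouse left out. In droplets without a nucleus, 3883 genes were called, against 70 in droplets of 100 to 300 UMIs and 0 to 4802 with 1 mouse left out (0 without VEcad-TRF2DN-Tg replicate 1), and in droplets of 800 to 1300 UMIs, a range chosen after seeing the data, 5757 genes were called, with 1 member, Ifit3, among them. For the interaction, 3 genes were called, against 23 by DESeq2, 148 with no filter, 0 at 3000 UMIs or more, 11 with mixed markers kept, 41 by markers alone and 0 to 217 with 1 mouse left out. In the other classes, 0 pairs of member and class were called, against 2 with no filter and 0 to 8 with 1 mouse left out (8 without WT replicate 2). The cause was not tested for any of these.

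With the replicate number as a block, 2783 genes, 1 member (Stat2) and 27 genes of the other lists were called in blood ECs, 2233 genes over all classed nuclei and 2 pairs of member and class elsewhere, and Ifit1 in droplets turned to -0.042. Mice share only a number across genotypes. Their deviations correlated at 0.16 in blood ECs and 0.24 over all classed nuclei. The interaction has a term for each mouse, so no block was added.

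Log2 fold changes of members that were not called changed sign in places. In blood ECs, Ifit1 was -0.068 with mixed markers kept and -0.084 by markers alone, and at 3000 UMIs or more Ifit3 was -0.31, Isg15 -0.49 and Irf7 -0.44. With the free RNA subtracted, Ifit3 was -0.13 in blood ECs and Isg15 -0.39 over all classed nuclei. DESeq2 gave -0.022 for Ifit1 in droplets. For the interaction at 3000 UMIs or more, Ifit2 was -0.0054, Irf7 -0.35 and Oasl2 -0.29, and Oasl2 was -0.031 with no filter and -0.062 with mixed markers kept. With 1 mouse left out, the ranges in blood ECs were -0.17 to 0.44 (Ifit1), -0.24 to 0.67 (Ifit3), -0.17 to 0.52 (Isg15), -0.59 to 0.96 (Irf7) and -0.36 to 0.051 (Rsad2). Over all classed nuclei they were -0.28 to 0.65 (Isg15) and -0.53 to 0.31 (Irf7). In droplets they were -0.51 to 0.30 (Ifit1), -0.049 to 1.18 (Irf7), -0.53 to 0.29 (Rsad2) and -0.37 to 0.075 (Oasl2), and for the interaction -0.64 to 0.56 (Ifit3), -0.15 to 0.16 (Isg15) and -0.33 to 1.43 (Irf7). Stat2 in blood ECs was below 0 in all 11 alternatives, from -0.86 to -0.55. Subtracting the free RNA moved the mean level of Oasl2 in mesothelial nuclei from 126 to 163 CPM, of Ifit2 in alveolar type 1 nuclei from 24.0 to 28.6 and of Stat2 in blood ECs from 90.6 to 117. Depth limits Isg15, Irf7, Ifit3, Rsad2 and Zbp1, which had 5 to 51 UMIs per mouse in blood ECs.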
